A study of Homo sapiens with 8 samples.

Results

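The NOTCH receptors, ligands and target genes were examined in SKBR3 cells, a human line from a breast cancer with ERBB2 (HER2) amplification. The set holds 10 genes, taken as the rows of the count table whose symbol was NOTCH1, NOTCH2, NOTCH3, NOTCH4, JAG1, JAG2, DLL1, HES1, HES4 or HEY1. All 10 were found, among 30434 genes in the table. RNA was sequenced from 4 control libraries, whose cells carry the genotype label WT, and from 4 FOXA1 knockdown libraries. FOXA1 is a pioneer transcription factor of luminal breast cells. The knockdown cells were a stable SKBR3 line transduced with lentivirus carrying 3 individual shRNAs (short hairpin RNAs) against FOXA1 mRNA, and both groups grew at 37 °C and 5% CO2 in DMEM +GlutaMAX-1 with pen/strep and 10% Fetal bovine serum. The labels do not say whether the controls received a control vector or whether the replicates were separate cultures. The p-values therefore measure the spread between these samples only, which may be technical.

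NOTCH receptors are single-pass membrane proteins that bind ligands of the Jagged and Delta-like families on neighbouring cells. Binding leads to cleavage by an ADAM protease and then by gamma-secretase, which frees the intracellular domain of the receptor. In the nucleus this domain joins the DNA-binding protein RBPJ and a Mastermind-like coactivator, and turns on genes of the HES and HEY families, which encode basic helix-loop-helix repressors. Without the receptor domain, RBPJ is bound by corepressors. In the mammary gland the pathway takes part in the choice between luminal and basal cell fates.

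The promoters of HES1 and HES4, the targets in the set that were lower after the knockdown, are shown because they carry the letters that RBPJ is known to bind. That of HES5, which carries them too, is shown for comparison. RefSeq promoter windows, each of 250 bases before to 50 bases after a gene's start on GRCh38.p14, were found for 8 of the 10 genes and for 17 of 21 when the other ligands and HES, HEY and NRARP targets were counted. HEY1, DLL1, DLL3 and DLK1 had no window and were not searched. Capitals mark GTGGGAA and, where present, TTCACAC, which is GTGTGAA on the opposite strand. The stretches of 70 bases from the HES1, HES4 and HES5 promoters are written in the direction of the gene. The end of the HES4 stretch lies within the gene as GENCODE 29 places its start.
HES1 (chr3:194136023-194136092, plus strand): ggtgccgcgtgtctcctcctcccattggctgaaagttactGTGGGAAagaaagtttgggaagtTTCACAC
HES4 (chr1:1000145-1000214, minus strand): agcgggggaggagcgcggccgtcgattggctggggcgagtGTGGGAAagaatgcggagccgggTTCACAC
HES5 (chr1:2530315-2530384, minus strand): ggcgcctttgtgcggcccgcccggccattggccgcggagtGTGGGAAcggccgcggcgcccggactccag

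HES1 and HES4 hold the same arrangement: GTGGGAA, then 16 bases, then TTCACAC. In HES1 the first motif lies 85 to 79 bases before the start and the other 62 to 56 bases before it. In HES4 the positions are 77 to 71 and 54 to 48. GTGGGAA was present on either strand in 2194 of 35116 promoters (6.25%) and GTGTGAA in 1053 (3.0%). Both were present in 92 (0.262%), and the arrangement with 16 bases between was present in 2 (0.0057%), HES1 and HES4; the spacing was read from these sequences and then searched for. HES5 and HEY2 held GTGGGAA at 2 positions each and HEYL at 1, without GTGTGAA. The windows of JAG1, JAG2, DLL4, DLK2, NOTCH1, NOTCH2, NOTCH3, NOTCH4, HES2, HES6, HES7 and NRARP held neither form, so the letters were not common to the HES genes, nor to those that were lower. The forkhead motif TGTTTAC, present on either strand in 3.42% of all promoters, was in none of the 17 windows. A match is a description of letters and not a measured binding site.

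The control libraries held 21838121 to 23786684 counts each, and the knockdown libraries 19087878 to 23503753. At these depths 3 counts, the limit used here for an undetected gene, equalled 0.129 to 0.142 CPM in control and 0.123 to 0.153 CPM in knockdown (the usual scaling of counts to a common library total, here with TMM factors, which correct for composition); this limit covers counting error only. FOXA1 had 4071 to 4397 counts in control libraries and 83 to 92 in knockdown libraries, so that 2.06% of the control level was left. The luminal markers ERBB2, KRT8, KRT18, KRT19, KRT7 and EPCAM were all detected in every library. Their summed level was 18260 to 20340 CPM in control and 11470 to 12360 CPM in knockdown, but they went both ways: ERBB2, KRT19 and KRT7 were called lower, and KRT8, KRT18 and EPCAM higher. Among the controls, replicate 3 was the least like the rest, with a chi-square per degree of freedom of up to 6.05 in its pairs. Results that move without it are given with that value.

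Of 16430 genes that passed the filter on low counts, edgeR's quasi-likelihood test called 77.1% at an adjusted p under 0.05, 39.4% higher and 37.7% lower in knockdown. Of the 10 NOTCH genes, 8 passed the filter and all 8 were called, 4 higher and 4 lower. DLL1 and NOTCH4 had too few counts to be tested. Among all tested genes, 28.3% were called with a change of at least 2-fold, 14.9% higher and 13.4% lower. JAG1, JAG2 and HEY1 rose by at least 2-fold, and 0 of the 8 fell that far. Control and knockdown libraries had no overlap for 7 of the 8, NOTCH1 being the exception, against 72% of all tested genes. The median log2 fold change of the 8 was -0.06, and that of all tested genes was 0.02. Fewer cells of a type and less RNA per cell cannot be told apart in these bulk libraries.

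**Figure D1:**
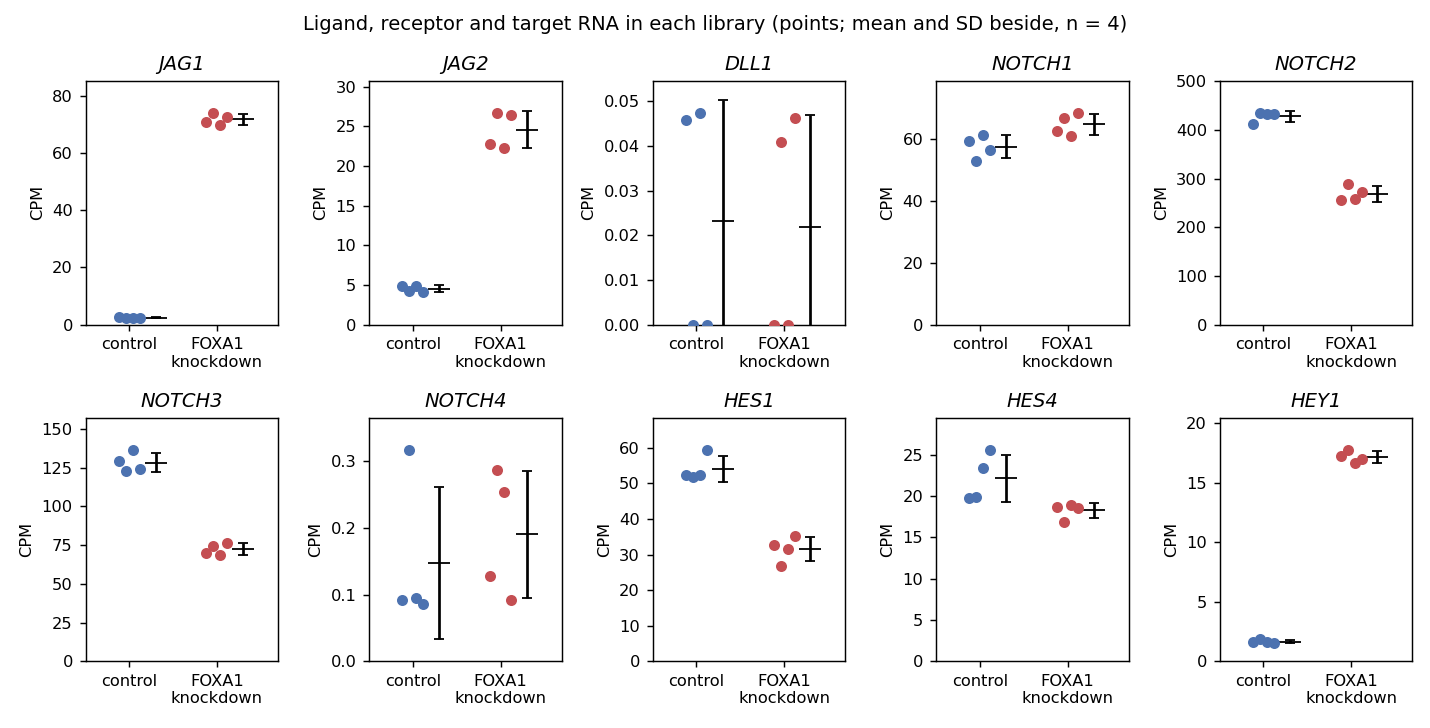
Level of each of the 10 genes in CPM (vertical axis, linear, from 0) in the 4 control and 4 FOXA1 knockdown libraries; points are libraries and the bars beside them give the mean and SD. JAG1, JAG2 and HEY1 are low in every control library and high in every knockdown library, whereas NOTCH2, NOTCH3 and HES1 are lower in every knockdown library. DLL1 and NOTCH4 lie at a few counts.

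Both Jagged ligands rose, JAG1 more than JAG2 in fold. JAG1 (ENSG00000101384.12, chromosome 20, 10637684 to 10673999, minus strand, GENCODE 29 on GRCh38) encodes a membrane ligand of the Jagged family. Its counts were 58, 55, 48 and 58 in the 4 control libraries, in replicate order, against 1669, 1810, 1373 and 1569 in the 4 knockdown libraries. All knockdown libraries were far above all controls. The level rose from 2.48 CPM ± 0.155 to 71.8 CPM ± 1.86 (n = 4 per group, SD; log2 change 4.85, SE 0.0486; edgeR adjusted p = 3.269e-27). Of all tested genes, 96.9% had a lower log2 fold change.

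JAG2 (ENSG00000184916.9, chromosome 14, 105140981 to 105168824, minus strand), the other ligand of that family, had 107, 94, 104 and 96 counts in control and 538, 653, 439 and 572 in knockdown. Its level rose from 4.55 CPM ± 0.417 to 24.6 CPM ± 2.32 (n = 4 per group, SD; log2 change 2.43, SE 0.0949; edgeR adjusted p = 1.041e-18). Again every knockdown library lay above every control. JAG2 was the more abundant Jagged RNA per length in control, at 0.781 CPM per kilobase against 0.417 for JAG1. In knockdown the order was the other way round, with 4.21 for JAG2 and 12.1 for JAG1. These values use the longest coding transcript. With the median length of coding transcripts JAG1 was above JAG2 in both groups. The values were 4.15 against 0.788 in control and 120.3 against 4.25 in knockdown. For JAG1 that median is 597 bases, shorter than its coding sequence of 3654 bases. An annotated transcript on the same strand overlaps JAG2 over 16631 bases but averaged only 2.625 counts.

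The Delta-like ligands differed from one another. DLL1 (chromosome 6, 170282206 to 170306565, minus strand), a canonical Delta-like ligand, had 1, 0, 1 and 0 counts in control and 0, 1, 0 and 1 in knockdown, below the limit in every library, so no fold change is given. DLL3, a divergent family member that is known to inhibit signalling within its own cell, had 3, 1, 3 and 1 counts in control and 138, 121, 103 and 130 in knockdown. It rose with an adjusted p of 5.26e-17 in edgeR. From the pooled 8 and 492 counts the ratio of knockdown to control was 60.8 (95% exact interval 30.6 to 142.0, counting error only). DLL4, best known from endothelial cells, did not pass the test, with 8 to 14 counts in control and 8 to 12 in knockdown (log2 fold change -0.29, adjusted p = 0.4021 in edgeR). The ratio from its pooled counts was 0.82 (95% exact interval 0.522 to 1.28). DLK1, a related protein without the usual receptor-binding domain, had 0 counts in every control library and 5, 0, 1 and 3 in knockdown. DLK2 had 3 to 8 counts in control and 1 to 7 in knockdown. Of the 7 ligand genes listed, 4 were tested, 3 rose and 0 fell, beside 39.4% higher and 37.7% lower among all tested genes.

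Markers of endothelial cells, another source of NOTCH ligands, were examined beside these values. PECAM1 had at most 6 counts in any library, and KDR had 0 in every control library and at most 7 in knockdown. CDH5 had 331 to 375 counts in control and 379 to 478 in knockdown, while VWF had 105 to 130 and 12 to 22. The summed level of the 4 endothelial markers was 20.7 to 22.09 CPM in control and 19.8 to 22.41 CPM in knockdown. Of the fibroblast markers 4 of 5 were in the table, with a summed level of 5.213 to 6.971 CPM in control and 6.205 to 7.65 CPM in knockdown, and DCN had at most 1 count. COL1A1 was called lower, with 103 to 134 counts in control and 79 to 107 in knockdown. PDGFRB was called higher, with 7 to 12 counts in control and 43 to 81 in knockdown. Of the immune markers 3 of 4 were in the table. PTPRC and CD79A had at most 3 counts, CD68 had 93 to 131 counts in control and 3 to 26 in knockdown, and the summed level was 4.527 to 5.681 CPM and 0.1848 to 1.146 CPM. The part of these markers in the NOTCH results was not tested.

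The receptors had smaller fold changes than JAG1 and JAG2, in both directions. NOTCH2 and NOTCH3 fell, NOTCH1 rose slightly, and NOTCH4 was barely detected. NOTCH2 (ENSG00000134250.20, chromosome 1, 119911553 to 120069626, minus strand) was the most abundant receptor. It had 9013, 9602, 9110 and 10040 counts in control and 6014, 7090, 5069 and 5881 in knockdown. Every knockdown library was below every control, and 62.8% of the control level was left. The level fell from 427.9 CPM ± 10.6 to 268.7 CPM ± 15.96 (n = 4 per group, SD; log2 change -0.67, SE 0.0460; edgeR adjusted p = 2.209e-14).

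NOTCH2 has near-identical partial copies, the NOTCH2NL genes, whose reads the counting could have split with it. NOTCH2NLA, NOTCH2NLB, NOTCH2NLC and NOTCH2NLR were all lower in knockdown, with log2 fold changes of -1.12, -0.78, -1.27 and -0.47 and adjusted p-values of 4.059e-11, 1.004e-05, 7.848e-11 and 0.003227 in edgeR. Together they had 43.86 to 49.23 CPM in control and 21.05 to 24.11 CPM in knockdown. That was 10.4 to 11.4% of the NOTCH2 level in control and 7.75 to 9.35% in knockdown. How reads were shared between these genes is uncertain.

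NOTCH3 (ENSG00000074181.9, chromosome 19, 15159038 to 15200981, minus strand) had 2831, 2707, 2883 and 2890 counts in control and 1648, 1817, 1350 and 1658 in knockdown. The groups did not overlap. Its level fell from 128.3 CPM ± 6.29 to 72.4 CPM ± 3.72 (n = 4 per group, SD; log2 change -0.83, SE 0.0509; edgeR adjusted p = 5.278e-15). In knockdown 56.4% of the control level was left.

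NOTCH1 (ENSG00000148400.12, chromosome 9, 136494433 to 136545786, minus strand) had 59.31, 52.91, 61.08 and 56.38 CPM in control and 62.48, 66.52, 60.98 and 68.29 CPM in knockdown. The groups overlapped: knockdown replicate 3 lay just below control replicate 3. The means were 57.4 CPM ± 3.58 and 64.6 CPM ± 3.41 (SD, n = 4 each), and edgeR called NOTCH1 higher with a log2 fold change of 0.17 (SE 0.0593, adjusted p = 0.003116). The exact two-sided permutation test on its CPM gave p = 0.0571, which misses the threshold. NOTCH4 (chromosome 6, 32194843 to 32224067, minus strand) had 2, 7, 2 and 2 counts in control and 3, 7, 5 and 2 in knockdown. The ratio of its pooled counts was 1.29 (95% exact interval 0.591 to 2.89), so a difference was not detectable at this depth.

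Levels of different receptors were compared per length, as CPM per kilobase of the longest coding transcript. The 4 receptors summed to 58.6 ± 1.20 CPM per kilobase in control and 38.9 ± 2.06 in knockdown (SD, n = 4 each). NOTCH1 made up 10.5% ± 0.581 of that sum in control and 17.8% ± 0.435 in knockdown, a larger share in all 4 knockdown libraries than in any control. The share of NOTCH3 was 25.3% ± 0.927 in control and 21.5% ± 0.541 in knockdown, and that of NOTCH2 was 64.2% ± 1.46 and 60.6% ± 0.941. For each of these 3 shares an exact permutation test (two-sided) returned p = 0.0286, the smallest that 4 against 4 libraries allow, and 0.0381 after Benjamini-Hochberg adjustment over 4 shares. NOTCH4 made up at most 0.103% in any library (exact permutation p = 0.171, adjusted 0.171). With the median length of coding transcripts, the NOTCH2 share was 0.349 percentage points higher in knockdown (exact permutation p = 0.686, adjusted 0.686). NOTCH1 and NOTCH3 kept an exact permutation p of 0.0286. Their adjusted p was 0.0571, because the adjustment over 4 shares also depends on NOTCH2. With coding lengths the shares of NOTCH1, NOTCH2 and NOTCH3 differed by 6.34, -3.22 and -3.15 points (adjusted exact permutation p = 0.0381 each).

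**Figure D2:**
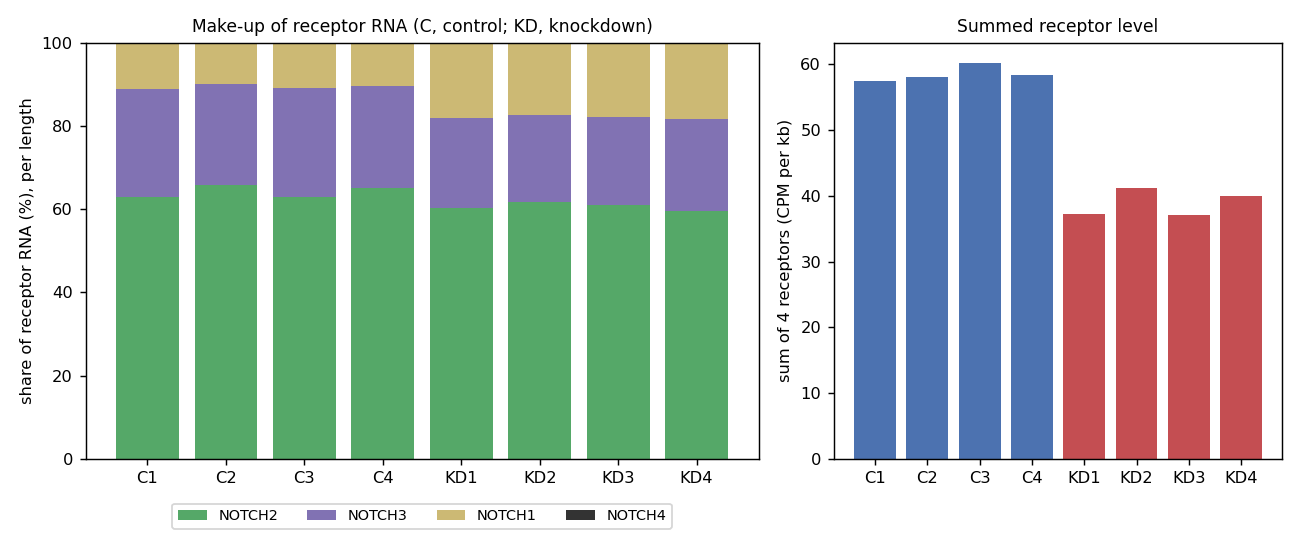
Left, share of each receptor in the summed receptor level per length (%, stacked bars, 1 per library; C, control; KD, FOXA1 knockdown); right, the sum in CPM per kilobase. NOTCH1 takes 9.78 to 11.1% in control libraries and 17.3 to 18.3% in knockdown libraries, while the sum is lower in every knockdown library; NOTCH4 is too small to see.

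The 5 Jagged and Delta-like ligands JAG1, JAG2, DLL1, DLL3 and DLL4 summed to 1.545, 1.275, 1.498 and 1.285 CPM per kilobase in control replicates 1 to 4. In knockdown replicates 1 to 4 they summed to 18.5, 19.31, 17.95 and 19.43. Set against the receptor sum of the same library, ligand RNA amounted to 2.39% ± 0.238 in control and 48.3% ± 1.18 in knockdown (SD, n = 4 each). JAG1 carried most of the knockdown sum. The ratio depends on the transcript lengths used. With coding lengths it was 2.66% in control and 53.5% in knockdown, and with the median length of coding transcripts 3.01% and 119.3%. That median is shorter than the coding sequence for JAG1 (597 against 3654 bases), NOTCH2 (4000 against 7413) and NOTCH3 (2211 against 6963).

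**Figure D3:**
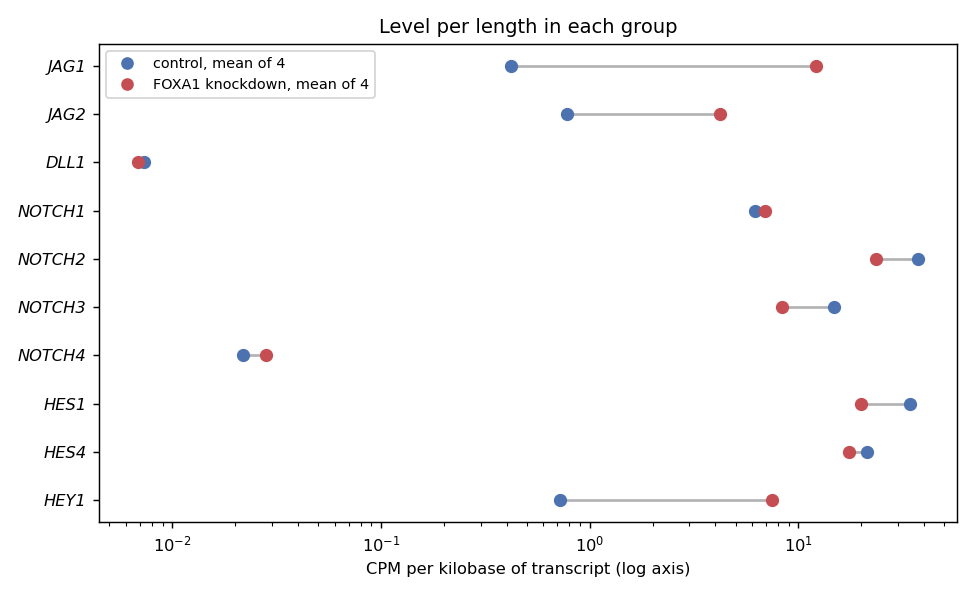
Mean level of the 10 genes in CPM per kilobase of the longest coding transcript (log axis) in control and FOXA1 knockdown libraries, n = 4 each. JAG1 goes from 0.417 to 12.1, and passes NOTCH3 and NOTCH1, while NOTCH2, HES1 and HES4 stay the 3 highest in both groups.

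Ordered by level per length of the longest coding transcript in control, the genes were NOTCH2 (37.6 CPM per kilobase), HES1 (34.3), HES4 (21.3), NOTCH3 (14.8), NOTCH1 (6.17), JAG2 (0.781), HEY1 (0.721), JAG1 (0.417), NOTCH4 (0.0219) and DLL1 (0.00734). The ranges of NOTCH2 and HES1, of JAG2 and HEY1, and of NOTCH4 and DLL1 overlapped between neighbours in this order. In knockdown the order was NOTCH2 (23.6), HES1 (20.02), HES4 (17.5), JAG1 (12.1), NOTCH3 (8.35), HEY1 (7.48), NOTCH1 (6.94), JAG2 (4.21), NOTCH4 (0.0282) and DLL1 (0.00686). Here HES1 overlapped HES4, HEY1 overlapped NOTCH1, and NOTCH4 overlapped DLL1. The order depends on the length used. With the median length of coding transcripts the highest in knockdown was JAG1 (120.3), followed by NOTCH2 (67.2), NOTCH3 (32.7), HES4 (20.3) and HES1 (20.02). For JAG1 that median, 597 bases, is shorter than the coding sequence of 3654 bases, and likewise for NOTCH2 and NOTCH3.

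The target genes split. HEY1, a repressor of the HEY family, rose; HES1 and HES4, repressors of the HES family, fell. HEY1 (ENSG00000164683.18, chromosome 8, 79764010 to 79767863, minus strand) had 35, 41, 35 and 35 counts in control and 407, 435, 327 and 368 in knockdown. The groups were far apart. Its level rose from 1.66 CPM ± 0.149 to 17.2 CPM ± 0.490 (n = 4 per group, SD; log2 change 3.37, SE 0.0663; edgeR adjusted p = 1.288e-20).

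HES1 (ENSG00000114315.4, chromosome 3, 194136145 to 194138732, plus strand), whose promoter is printed above, had 1148, 1140, 1107 and 1383 counts in control and 770, 657, 622 and 761 in knockdown. All 4 knockdown libraries lay below the controls, with control replicate 4 the highest. Its level fell from 54.0 CPM ± 3.67 to 31.6 CPM ± 3.47 (n = 4 per group, SD; log2 change -0.78, SE 0.0946; edgeR adjusted p = 5.949e-08). HES4 (ENSG00000188290.11, chromosome 1, 998962 to 1000172, minus strand) had 19.8, 19.86, 23.38 and 25.61 CPM in control and 18.72, 16.85, 18.92 and 18.48 CPM in knockdown. The groups did not overlap, but the highest knockdown library lay close to the lowest controls. HES4 fell by 0.28 on the log2 scale (SE 0.0991, adjusted p = 0.002209 in edgeR). With the median change of the genes around it removed, as described below, the log2 fold change was -0.04 and the adjusted p was 0.6657, so the call was lost.

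The list of targets held 10 genes, the 3 of the set among them; 7 were tested, 3 were higher, 3 lower and 1 was not called. The share called, 85.7%, was near the 77.1% of all tested genes, of which 39.4% were higher and 37.7% lower. NRARP, an ankyrin-repeat protein that feeds back on NOTCH signalling, had 64, 76, 67 and 90 counts in control and 223, 200, 186 and 199 in knockdown. It rose from 3.36 CPM ± 0.405 to 9.08 CPM ± 0.609 (n = 4 per group, SD; log2 change 1.43, SE 0.099; edgeR adjusted p = 4.029e-12). HEYL, the relative of HEY1, had 2, 2, 0 and 4 counts in control and 36, 32, 16 and 30 in knockdown (adjusted p = 7.897e-09 in edgeR). Its pooled counts, 8 and 114, gave a ratio of 14.1 (95% exact interval 6.91 to 33.4).

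HES5 had 4, 8, 6 and 14 counts in control and 0, 1, 0 and 2 in knockdown, every knockdown library being below every control. It was below the filter for the edgeR test. Its pooled counts, 32 and 3, gave a ratio of control to knockdown of 10.8 (95% exact interval 3.38 to 55.1), and the exact two-sided permutation test on its CPM gave p = 0.0286. HES6, a family member known to counteract HES1, fell by 0.26 on the log2 scale (adjusted p = 0.004657 in edgeR), but its groups overlapped (exact permutation p = 0.0571). HES2 did not pass the test (log2 change 0.08, edgeR adjusted p = 0.228). HES7 had at most 3 counts and HEY2 at most 2. Thus HES1, HES4 and HES6 were called lower, and HEY1, HEYL and NRARP higher.

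Each gene was set beside the median log2 fold change of the 50 expressed genes nearest to it, because such medians differed between places on the chromosomes. Whether they differed beyond the scatter of 50 genes was not tested. Among the tested members these neighbours reached from 0.839 megabases away for HES4 to 11.3 megabases for HEY1. JAG1 rose by 4.85 where its neighbours had a median of -0.11, JAG2 by 2.43 where they had -0.03, and HEY1 by 3.37 where they had -0.40. NOTCH2 and NOTCH3 fell although their neighbours had medians of 0.11 and 0.17. The neighbours of HES1 had a median of 0.01, and those of HES4 -0.25, close to the -0.28 of HES4 itself. The neighbours of NOTCH1 had a median of -0.22. With that shift taken out, NOTCH1 was higher by 0.39 (adjusted p = 8.967e-08 in edgeR). The median was entered as a fixed value, without its own error. All p-values with the neighbours' shift taken out leave out that error and may therefore be too small.

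**Figure D4:**
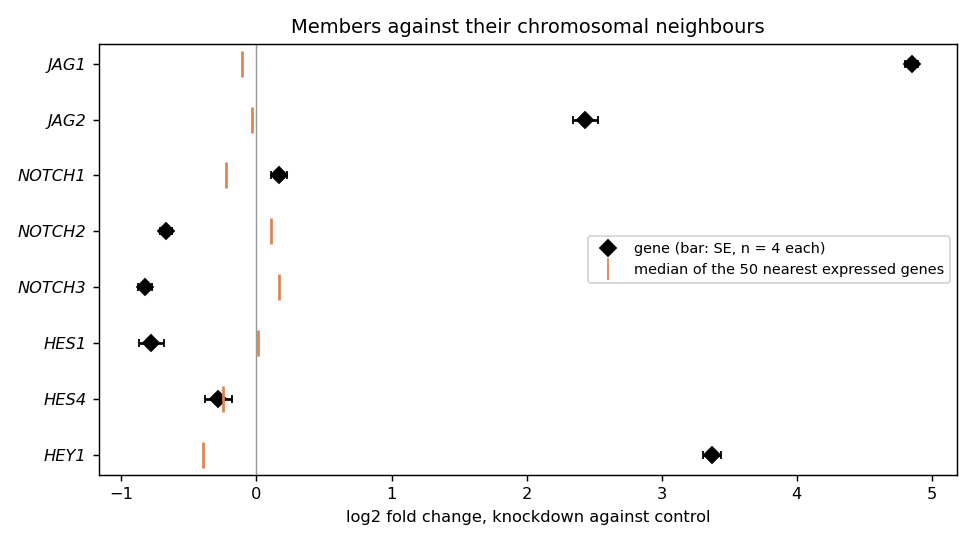
Log2 fold change of the 8 tested genes (diamonds, bars are SE, n = 4 each) and the median of the 50 expressed genes nearest to each on its chromosome (vertical marks). HES4 lies on its neighbours' median, whereas JAG1, JAG2 and HEY1 lie far to the right of theirs.

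The wider pathway was read from lists by role that hold 69 genes in all, the 10 included. The lists were chosen with earlier results of these data known. Their shares of called genes, here and by role below, therefore describe the lists and test nothing. Of the 69 genes, 61 were tested and 54 (88.5%) were called, 37 higher (60.7%) and 17 lower (27.9%), beside 77.1%, 39.4% and 37.7% of all tested genes. Their median log2 fold change was 0.25, against 0.02 for all tested genes. Leaving out the members of the set, 33 of 53 tested genes were higher and 13 lower, with a median of 0.26. With the filter set at a mean of at least 50 counts, 10279 of 12421 genes were called, 5206 higher and 5073 lower. With that filter 50 pathway genes were called, 35 higher and 15 lower.

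In the nuclear complex, all 8 of 8 genes were higher, beside 39.4% of all tested genes, with a median log2 fold change of 0.62. All 8 were also called higher with the shift of neighbours taken out. RBPJ, the DNA-binding protein of the pathway, had 46.69, 47.42, 42.25 and 46.99 CPM in control and 84.55, 87.83, 85.9 and 82.85 CPM in knockdown. It rose by a log2 fold change of 0.90 (adjusted p = 1.367e-15 in edgeR). The Mastermind-like coactivators MAML1 and MAML2 rose as well. MAML1 went from 65.0 CPM ± 0.549 to 125.9 CPM ± 6.15, and MAML2 from 5.35 CPM ± 1.05 to 22.4 CPM ± 1.17 (n = 4 per group, SD; log2 changes 0.95 and 2.06; edgeR adjusted p = 5.125e-17 and 3.439e-15). RBPJ and MAML1 lie among genes that were themselves higher, with neighbour medians of 0.49 and 0.55. With the shift of neighbours taken out, their log2 fold changes were 0.40 and 0.41 (adjusted p = 1.077e-08 and 1.474e-09). MAML3, SNW1, EP300, KAT2A and KAT2B rose by 0.25 to 0.73 on the log2 scale. On the opposite strand, SLIRP overlaps SNW1 over 43506 bases and MGST2 overlaps MAML3 over 23993 bases. They averaged 2380.12 and 314.5 counts.

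Among the corepressors that RBPJ or the HES proteins recruit, 9 of 12 were higher, 2 lower and 1 not called, beside 39.4% higher and 37.7% lower among all tested genes. With the shift of neighbours taken out 8 were higher and 3 lower, CTBP1 going from 0.47 to -0.23 (adjusted p = 2.108e-05 in edgeR). The Groucho-family genes TLE2 and TLE4 had the largest log2 fold changes, 1.18 and 1.22 (adjusted p = 6.223e-17 and 2.001e-09 in edgeR). For TLE2 the control mean was 20.2 CPM ± 0.319 and the knockdown mean 45.9 CPM ± 2.15 (n = 4 per group, SD). L3MBTL3, which binds RBPJ, rose, with 29 to 42 counts in control and 43 to 79 in knockdown (log2 fold change 0.89, adjusted p = 5.246e-05 in edgeR). The 2 genes that fell were CIR1 and NCOR1, by 0.41 and 0.14, and SPEN did not pass the test. With library size only, NCOR1 lost its call (adjusted p = 0.2442 in edgeR) and SPEN gained one (log2 change 0.11, adjusted p = 0.007651).

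The proteases gave 4 higher, 4 lower and 1 not called of 9, beside 39.4% higher and 37.7% lower among all tested genes. With the shift of neighbours taken out 3 were higher and 4 lower. FURIN, the convertase that cuts the receptor precursor, rose from 52.7 CPM ± 2.51 to 140.4 CPM ± 7.001 (n = 4 per group, SD; log2 change 1.42; edgeR adjusted p = 7.947e-20). ADAM10, the main protease of the ligand-induced cut, had a log2 fold change of -0.11 and did not pass the test (adjusted p = 0.0882 in edgeR). It passed without control replicate 3, at -0.17 (adjusted p = 0.0001644 in edgeR), and with no filter on low counts, at -0.10 (adjusted p = 0.02161 in edgeR). With the shift of neighbours taken out ADAM10 was 0.28 higher (adjusted p = 0.0001846 in edgeR). ADAM17, a related protease known mainly for cleavage without ligand, rose by 0.75 (adjusted p = 2.549e-13 in edgeR). Of the gamma-secretase subunits, APH1B fell, with 87 to 106 counts in control and 18 to 27 in knockdown (log2 fold change -2.20, adjusted p = 1.951e-12 in edgeR). PSEN2 fell by 0.51. NCSTN fell by 0.37 and APH1A rose by 0.15, but neither was called with the shift of neighbours taken out (-0.04 and 0.08, adjusted p = 0.3928 and 0.05947 in edgeR). PSENEN was called at 0.12 although its groups overlapped (exact permutation p = 0.0571). It missed the threshold in 8 of 18 alternatives, among them RLE scaling (adjusted p = 0.05079 in edgeR) and DESeq2 (0.09024). The highest adjusted p was 0.1679 in edgeR, without control replicate 2. With the shift of neighbours taken out PSENEN stood at -0.32 (adjusted p = 5.082e-06 in edgeR). ADAM17 overlaps IAH1 over 8058 bases on the opposite strand, and strand use in the counting is not given in the sources used here.

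Of 14 genes of ubiquitin transfer and trafficking, 8 were higher, 5 lower and 1 not called, beside 39.4% higher and 37.7% lower among all tested genes. With the shift of neighbours taken out the sign turned for 5 of the 14, 4 of them called. The Deltex-family genes DTX4 and DTX3L rose. DTX4 had 234, 274, 270 and 233 counts in control and 1196, 1207, 882 and 1123 in knockdown (log2 fold change 2.10, adjusted p = 2.074e-18 in edgeR). DTX3L had 224 to 260 counts in control and 723 to 990 in knockdown (log2 fold change 1.74, adjusted p = 1.334e-18 in edgeR), and it overlaps PARP9 over 340 bases on the opposite strand. DTX1, another Deltex gene, fell, with 26 to 38 counts in control and 6 to 8 in knockdown (log2 fold change -2.17, adjusted p = 4.615e-08 in edgeR). Of the ligases that act on the ligands, MIB1 rose by 0.52 and MIB2 fell by 0.72 (adjusted p = 2.854e-10 in edgeR for MIB2), or by 0.47 with its neighbours' shift taken out. NEURL1, a ligase of the same kind, had 4, 0, 1 and 1 counts in control and 38, 29, 38 and 47 in knockdown. Its pooled ratio was 25.0 (95% exact interval 11.2 to 69.3). DTX1 and NEURL1 were chosen after their values were seen.

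Of 4 glycosyltransferase genes tested, 1 was higher, 1 lower and 2 not called, beside 39.4% higher and 37.7% lower among all tested genes. Their log2 fold changes ran from -0.37 to 0.20. RFNG, a Fringe enzyme that modifies the receptors, fell from 26.2 CPM ± 2.10 to 20.2 CPM ± 1.00 (n = 4 per group, SD; log2 change -0.37; edgeR adjusted p = 5.137e-06), or by 0.18 with its neighbours' shift taken out. It overlaps GPS1, which averaged 3211.75 counts, over 1141 bases on the opposite strand. POGLUT1, the O-glucosyltransferase of the receptors, had a log2 fold change of 0.20 (adjusted p = 0.0294 in edgeR). Without control replicate 3 its log2 fold change was 0.13 and the adjusted p was 0.1259, and with its neighbours' shift taken out it was -0.01 (adjusted p = 0.8711). POFUT1 and LFNG did not pass the test. POFUT1 was called higher with upper-quartile scaling, library size only or the neighbours' shift removed (adjusted p = 0.01954, 0.00487 and 0.0005698 in edgeR).

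**Figure D5:**
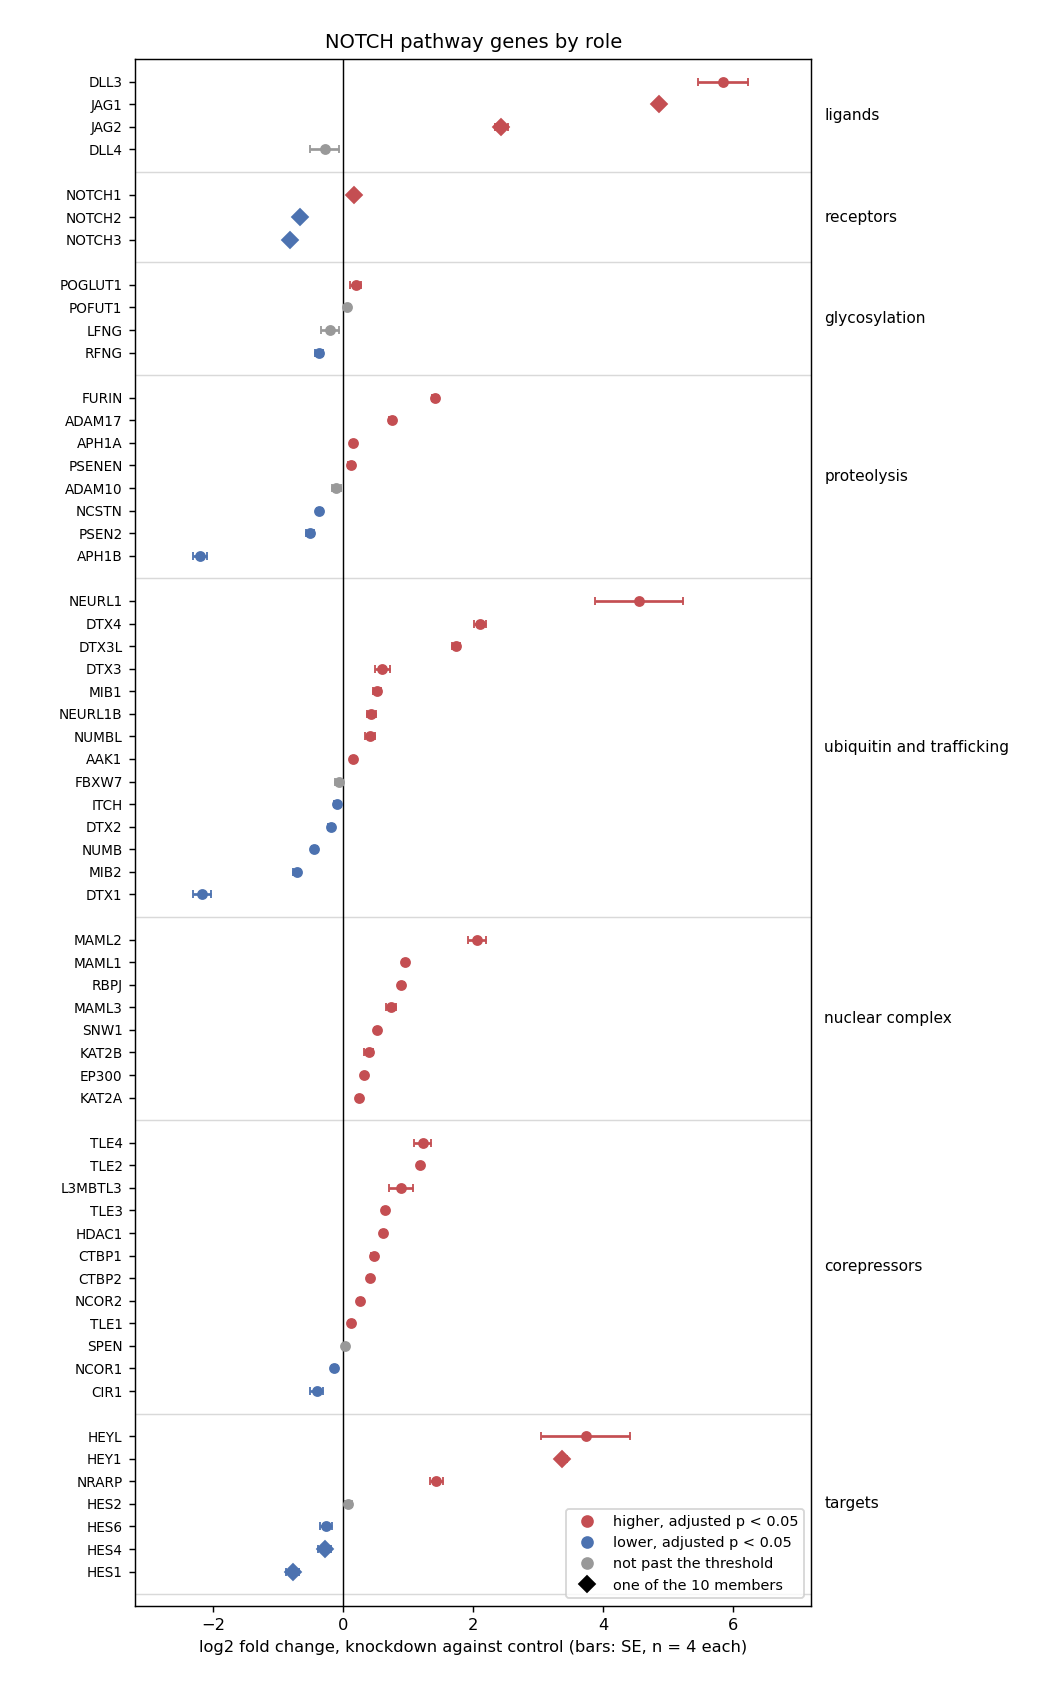
Log2 fold change (knockdown against control; horizontal axis) of the tested NOTCH pathway genes reported here, grouped by role; bars are SE (n = 4 each), diamonds are genes of the set of 10, and colour gives the edgeR call at an adjusted p under 0.05. JAG1, JAG2 and DLL3 lie far to the right among the ligands, all 8 genes of the nuclear complex lie to the right of 0, and the targets lie on both sides.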

How the data were processed

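Trizol RNA of SKBR3 cells gave 4 control and 4 FOXA1 knockdown libraries, read as paired ends on an Illumina NextSeq instrument, per the labels' protocols. The authors deposited whole-number counts per gene, raw by the file's own description. The submitters' processing notes name FastQC, Salmon 1.9, DESeq2 3.16 and hg38, without their roles. Salmon estimates counts, so the whole numbers may be rounded; the annotation release and the use of strand are not given in the sources used here.

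Counts were fitted in R 4.3.3 with edgeR 4.0.16: filterByExpr (minimum 10 counts, total 15 counts), TMM, robust quasi-likelihood test, Benjamini-Hochberg adjustment over all 16430 genes tested, threshold 0.05. CPM is the count over the TMM-scaled total. Standard errors come from the spread of log2 CPM with 0.5 added to each count. Totals ran from 19087878 to 23786684 counts and the biological coefficient of variation was 4.56%. Single values were tested by exact two-sided permutation over 70 divisions. Ratios of pooled counts carry 95% exact conditional binomial intervals. Positions and lengths come from GENCODE 29, which matched 96.5% of identifiers, and promoters from RefSeq. Neighbours are tested genes whose mean count reached 50. The fit was checked on simulated data. Figures and summaries used Python 3.11.15.

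The members and lists were chosen with earlier results of these data known. The text names all 10 members, all listed ligands, receptors and targets, and up to 3 further genes per list with the largest change among called genes whose groups did not overlap and whose mean count reached 50; other genes are given as values, and some listed genes are counted but not reported by name here. Alternatives were other scalings (RLE, upper quartile, library size only), other filters on counts, DESeq2 1.42.0, limma voom 3.58.1, no robust estimation, a replicate block, leaving out each library, removing the neighbours' shift, and other transcript lengths.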

Additional observations from a re-analysis of the deposited data

Results flagged for a closer look

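In 6 cases 1 library lay apart from the other 3 of its group, with a gap past Dixon's 95% critical value; 60 groups of 4 were looked at, of which chance flags about 1 in 20, or 3. NOTCH2 was low in control replicate 1, at 412.2 CPM against 432.0 to 435.3 in the other controls. NOTCH4 was high in control replicate 2, at 0.3173 CPM against 0.08607 to 0.09485, which is 7 counts against 2. HES1 was high in control replicate 4, at 59.52 CPM against 51.68 to 52.5. RFNG was high in control replicate 3, at 29.36 CPM against 24.89 to 25.35, and RBPJ was low in the same library, at 42.25 CPM against 46.69 to 47.42. HES6 was high in knockdown replicate 1, at 12.39 CPM against 10.78 to 11.05. Without the library in question, NOTCH2, HES1, RFNG, RBPJ and HES6 kept their direction and their call.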

How the results depend on the processing

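The number of the 10 genes called was 8 (4 higher, 4 lower) in 17 of 18 alternatives and 7 with the neighbours' shift removed, where HES4 was lost. Pathway calls ran from 50 to 57, against 54. With the shift removed, 52 pathway genes were called, and 44 of the 54 kept call and direction. The sign of the log2 fold change turned for 11 of 61: POGLUT1 (-0.015), PSENEN (-0.32), NEURL1B (-0.31), ITCH (0.097), DTX2 (0.091), AAK1 (-0.0098) and CTBP1 (-0.23), which had been called, and DLL4 (0.22, adjusted p = 0.5233 in edgeR), LFNG (0.067), ADAM10 (0.28) and FBXW7 (0.34), which had not. FBXW7 also turned with library size only (0.017). Besides the turn of sign, ITCH lost its call in 7 of 18 alternatives and PSENEN in 8. POGLUT1 also lost its call with DESeq2 (adjusted p = 0.07258) and without 4 of the libraries in turn (adjusted p between 0.05854 and 0.1259 in edgeR). HES2 passed the test with upper-quartile scaling, with library size only and with the shift removed. With the median length of coding transcripts the share of NOTCH2 was 0.349 percentage points higher in knockdown. Those of NOTCH1 and NOTCH3 differed by 2.89 and -3.25 points, with an exact permutation p of 0.0286 and an adjusted p of 0.0571. Leaving out each library, a choice added after seeing the data for these shares, gave 7.05 to 7.48 points for NOTCH1, -3.94 to -2.99 for NOTCH2 and -4.11 to -3.51 for NOTCH3; the cause of these shifts was not tested.

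With the replicate number as a replicate block, 12453 genes were called against 12675, all 8 members and all 54 pathway genes among them. Deviations of same-numbered libraries correlated at 0.0877, 0.168, -0.0355 and 0.0661 across genes, and those of differently numbered libraries at -0.119 to 0.074. For knockdown replicates 1, 2 and 4 the same-numbered control correlated highest, and for knockdown replicate 3 control replicate 1 did. Whether the numbers mark pairs was not settled, and the main fit did not use them. Depth limits DLL1, NOTCH4, HES7 and HEY2, for which differences were not detectable. With no filter on low counts edgeR called DLK1 higher (adjusted p = 0.006546), from 0 pooled counts in control and 9 in knockdown, and HES5 lower.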
